A study of Mus musculus with 18 samples.

Results

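Gas5, Snhg1, Snhg5, Snhg6, Snhg8, Snhg12 and Zfas1 are genes whose spliced RNA encodes no known protein and whose introns hold small nucleolar RNAs (snoRNAs). These 7 host genes were chosen by symbol, because snoRNA genes inside Gas5 were lower with CT-179 in the cultured cells, and all 7 were found among 55183 genes of the cell table and 19464 genes of the brain table. All 7 passed a minimum of 1 FPKM (fragments scaled to gene length and library size) in 3 libraries, in cells and in brain. The cells were PTCP53 304, a Sonic hedgehog medulloblastoma line of genotype Ptch1+/-; Trp53-/-, given CT-179, described as an inhibitor of the transcription factor OLIG2, or vehicle, for 144 h, until day 6 in culture, or for 24 h, until day 1. The whole brains were from Ptch1+/- mice given CT-179 or vehicle over 12 days from postnatal day 3 and taken on postnatal day 15; their genotype label also reads IR, which the labels do not explain. Each of the 6 groups had 3 libraries, 18 in all. PTCP53 304 is 1 line. No label states that the libraries of a group came from different cultures or mice; p-values therefore reflect spread among libraries, possibly technical. All 6 brain titles name vehicle, the short descriptions of the vehicle brains begin with C and those of the CT-179 brains with V, and every brain direction rests on the treatment label.

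Box C/D snoRNAs guide 2'-O-methylation of ribosomal RNA and box H/ACA snoRNAs guide its pseudouridylation. Most vertebrate snoRNAs are cut from introns after the host RNA is spliced, and the spliced host RNA then has a fate of its own. Several hosts of this kind start with a terminal oligopyrimidine tract, which places their translation under control of growth signals, and their spliced RNA is then degraded by nonsense-mediated decay. Gas5 was named for its accumulation in growth-arrested mouse cells.

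In the files' coordinates (mm10) the hosts lie at chr1:161034607-161038539 on the + strand (Gas5), chr19:8723475-8726443 on the + strand (Snhg1), chr9:88495268-88523562 on the - strand (Snhg5), chr1:9941959-9944118 on the - strand (Snhg6), chr3:123507552-123508404 on the - strand (Snhg8), chr4:132308623-132311024 on the + strand (Snhg12) and chr2:167062934-167065862 on the + strand (Zfas1). Inside them the GENCODE M21 annotation (GRCm38) placed 30 snoRNA gene models on the same strand, of which 16 passed the filter in cells: 7 of 10 in Gas5, 6 of 8 in Snhg1, 2 of 3 in Zfas1, 1 of 1 in Snhg8, and none of 2 in Snhg5, 1 in Snhg6 or 5 in Snhg12. The sequences below, from the GENCODE M21 transcripts, are those of the 4 Gas5 snoRNA genes and the 1 Snhg1 snoRNA gene with the most fragments. Capitals mark TGATGA (box C) within the first 20 bases and CTGA (box D) within the last 20 bases.
Snord78 (chr1:161036984-161037049, + strand): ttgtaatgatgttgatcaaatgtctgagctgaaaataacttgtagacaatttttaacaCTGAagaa
Gm23212 (chr1:161036682-161036741, + strand): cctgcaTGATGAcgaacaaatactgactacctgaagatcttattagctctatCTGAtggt
Snord80 (chr1:161037601-161037681, + strand): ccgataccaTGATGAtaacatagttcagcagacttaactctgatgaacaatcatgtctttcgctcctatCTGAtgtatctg
Gm26224 (chr1:161035394-161035473, + strand): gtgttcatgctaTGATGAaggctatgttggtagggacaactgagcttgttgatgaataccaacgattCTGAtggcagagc
Gm24453 (chr19:8724868-8724943, + strand): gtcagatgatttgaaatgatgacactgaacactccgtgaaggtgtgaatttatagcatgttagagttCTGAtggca
All 10 gene models in Gas5 and all 8 in Snhg1 held CTGA near the 3' end, and 8 and 5 of them held TGATGA near the 5' end. Snord78 and Gm24453 lack an exact TGATGA in that window.

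RefSeq promoter windows (GRCm38.p6, 250 bases before to 50 after a start) were at hand for 6 of the 7 hosts, with 2 windows for Gas5. The 80 bases around the start are shown for the hosts with an oligopyrimidine start, taken as a C followed by at least 4 letters that are each C or T, on the gene strand, within 15 bases of the annotated start. Capitals mark that run and TATAAA.
Gas5 (chr1:161035126-161035205, + strand): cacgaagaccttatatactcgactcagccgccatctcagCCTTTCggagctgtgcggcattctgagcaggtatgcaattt
Snhg5 (chr9:88522858-88522937, - strand): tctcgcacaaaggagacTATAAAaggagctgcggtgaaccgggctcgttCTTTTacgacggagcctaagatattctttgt
Snhg8 (chr3:123508297-123508376, - strand): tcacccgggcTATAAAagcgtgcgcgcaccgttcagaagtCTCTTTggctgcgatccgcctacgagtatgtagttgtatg
Snhg12 (chr4:132308638-132308717, + strand): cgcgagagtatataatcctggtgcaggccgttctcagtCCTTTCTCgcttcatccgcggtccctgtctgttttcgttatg
Such a start was found in 4 of the 7 windows, against 40.9% of 32851 windows. TATAAA, read on both strands, was in the windows of Snhg1, Snhg5 and Snhg8, against 13.6% of all windows. CACGTG (7.15% of windows) and CCGGAAGT (3.89%), read on both strands, were in none of the 7 windows.

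Library sizes recovered from the values of single fragments were 22250700 to 53336900 fragments in cells and 12665800 to 50064400 in brain, the lowest being vehicle brain replicate 2. One library stood apart: replicate 2 of CT-179 at 144 h correlated with its group at r = 0.94, against 0.996 or more within the other cell groups. In that library the shortest 10% of the genes tested (up to 1148 bases) lay 0.57 above its mean over the cell libraries, and the longest 10% 0.74 below, on the log2 scale. In all, 6 of the 7 hosts had their highest cell value there, and Snhg5 was highest in vehicle at 24 h. Relative to the mean of replicates 1 and 3, its values were 2.11-fold for Gas5, 2.17-fold for Snhg1, 1.61-fold for Snhg5, 2.25-fold for Snhg6, 2.98-fold for Snhg8, 1.68-fold for Snhg12 and 2.28-fold for Zfas1, while the median over all genes tested was 0.93-fold. The part of this library's gene-length pattern in the host values was not tested. Markers of the medulloblastoma line summed to 524.9 to 689.4 FPKM in the cells, mostly from Olig2, Sox2 and Ccnd1 (means 296.9, 188.7 and 90.5 FPKM). The other listed markers were lower, with means of 12.2 for Ptch1, 8.94 for Gli1, 3.59 for Gli2 and 1.69 for Mycn. Atoh1 reached at most 0.025 FPKM. Astrocyte markers (5 of 5 measured) summed to 296.3 to 462 FPKM under CT-179 and 471.6 to 478.2 FPKM in vehicle at 144 h, against 100.4 to 102.7 FPKM under CT-179 and 102.5 to 105.5 FPKM in vehicle at 24 h. Neuronal markers (6 of 6) summed to 36.7 to 80.7 FPKM under CT-179 and 82.6 to 86.8 FPKM in vehicle at 144 h, against 38.0 to 40.6 FPKM under CT-179 and 40.7 to 42.0 FPKM in vehicle at 24 h. Oligodendrocyte precursor markers (3 of 3) summed to 38.9 to 64.4 FPKM under CT-179 and 89.9 to 93.9 FPKM in vehicle at 144 h, against 27.0 to 30.4 FPKM under CT-179 and 35.3 to 38.9 FPKM in vehicle at 24 h. Under CT-179 at 144 h the median sums lay near the high ends, at 456.5 FPKM for astrocyte, 78.3 for neuronal and 62.3 for precursor markers. Mature oligodendrocyte markers (5 of 5) summed to 54.4 to 72.0 FPKM at 144 h, against 6.52 to 7.38 FPKM at 24 h, with Mog at 0. Their part in the host values was not tested. Microglial markers summed to at most 0.251 FPKM there and endothelial markers to at most 0.204 FPKM.

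**Figure D1:**
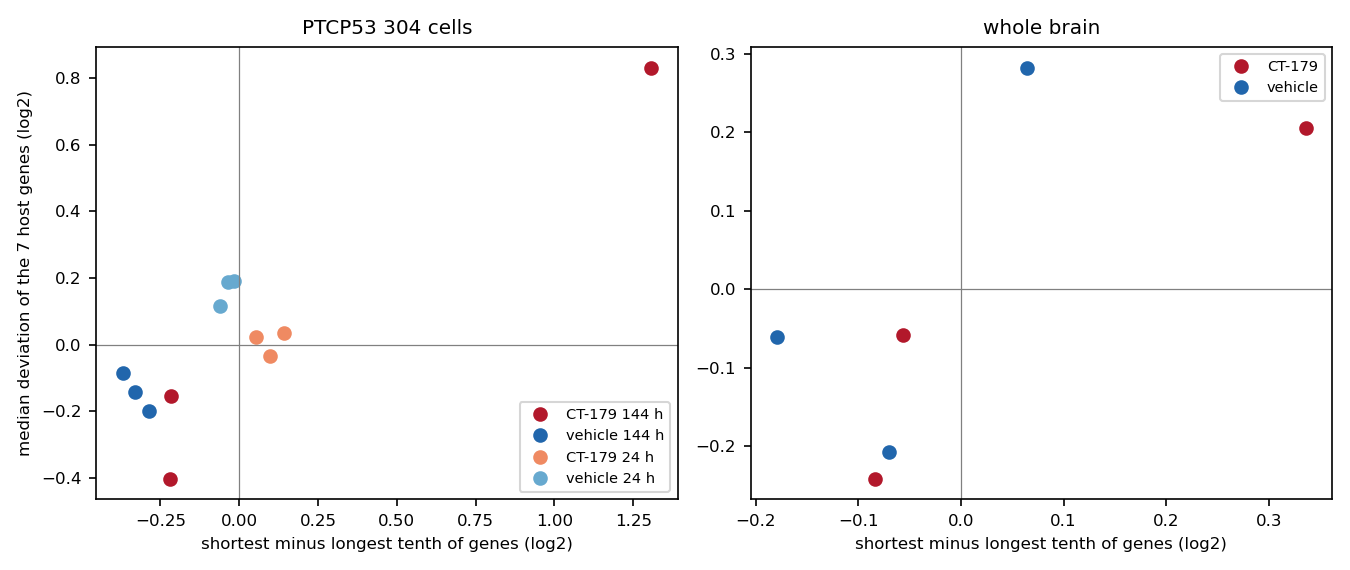
Median deviation of the 7 host genes from their mean over the table (y axis, log2) against the difference between the shortest and the longest 10% of genes (x axis, log2); each point is a library. CT-179 144 h replicate 2 sits alone at 1.31 on the x axis and 0.83 on the y axis, and the highest brain host values are in CT-179 replicate 1 and vehicle replicate 3.

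Gas5 was the most abundant host per length in every group and Snhg5 or Snhg12 the least. With CT-179 for 24 h Gas5 stood at 88.5, 89.6 and 88.9 FPKM, against 92.7, 86.1 and 93.8 FPKM in vehicle. Snhg8, host of the H/ACA snoRNA Snora24, followed with 53.2, 54.0 and 52.3 FPKM under CT-179 and 48.2, 48.3 and 48.3 FPKM in vehicle. At 24 h the order was Gas5, Snhg8, Snhg1, Snhg6, Zfas1, Snhg5 and Snhg12 with either treatment, and neighbours did not overlap in range. At 144 h Zfas1 stood above Snhg1 in mean, with overlapping ranges. Snhg12 then stood above Snhg5 in mean, with ranges that overlapped under CT-179 and not in vehicle. These orders depend on the gene lengths behind the FPKM: 2885 bases for Snhg5, 2402 for Snhg12, 859 for Zfas1 and 604 for Snhg8. In vehicle at 24 h, Snhg5 had 16.0, 15.8 and 15.7 fragments per 1000000 of the library, above Zfas1 at 12.2, 12.0 and 12.8. Under CT-179 at 24 h these hosts overlapped on that scale. Gas5 was highest on it in every cell library.

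The hosts chosen for their snoRNAs were compared between CT-179 and vehicle in cells as a description only. At 24 h, Snhg12 was lowest relative to vehicle, at 2.38, 2.64 and 2.91 FPKM under CT-179 and 5.0, 4.80 and 3.91 FPKM in vehicle (log2 fold change -0.61 ± 0.15 SE). Snhg12 was counted over 100% of its span, against 21.6% for Gas5 and 29.1% for Snhg1. Its fragments can therefore include introns and snoRNA genes, and its value need not be that of spliced RNA. Snhg5, host of the Snord50 pair, had 3.65, 3.97 and 3.77 FPKM under CT-179 and 5.54, 5.47 and 5.44 FPKM in vehicle (-0.44 ± 0.14). Snhg1, host of Snord22, had 22.5, 21.7 and 25.1 FPKM under CT-179 and 28.6, 28.5 and 27.5 FPKM in vehicle (-0.28 ± 0.24). In these 3 hosts and in Zfas1 every CT-179 library lay below every vehicle library, in Snhg8 every one lay above, and Gas5 and Snhg6 overlapped. Thus 4 of 7 hosts were lower without overlap, where 22.9% of all genes tested were, and 1 of 7 higher, where 14.5% were. The median log2 fold change was -0.15 over the hosts and -0.01 over all genes tested.

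At 144 h, Gas5 stood at 108, 224 and 105 FPKM under CT-179 and 95.4, 95.8 and 99.5 FPKM in vehicle. Zfas1, the antisense neighbour of Znfx1 and host of the Snord12 family, stood at 22.3, 47.3 and 19.1 FPKM under CT-179 and 16.8, 16.5 and 17.7 FPKM in vehicle. Both were higher in every CT-179 library, 2 of 7 hosts, where 19.1% of all genes were higher without overlap; none was lower without overlap, where 27% of all genes were. The log2 fold changes were 0.49 ± 0.23 for Gas5 and 0.65 ± 0.25 for Zfas1 (SE), and 0.13 ± 0.04 and 0.27 ± 0.06 without replicate 2. Without that library Snhg12 was lower in every CT-179 library (-0.17), 1 of 7, where 32.7% of all genes were, and Gas5 and Zfas1 higher, where 27% were. Over all genes tested the median was -0.05 with that library and -0.007 without it, and over the hosts 0.34 and -0.03. Snhg1, Snhg6 and Snhg8 stood 0.25, 0.34 and 0.62 above vehicle with it, and at -0.10, -0.03 and 0.11 without it.

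**Figure D2:**
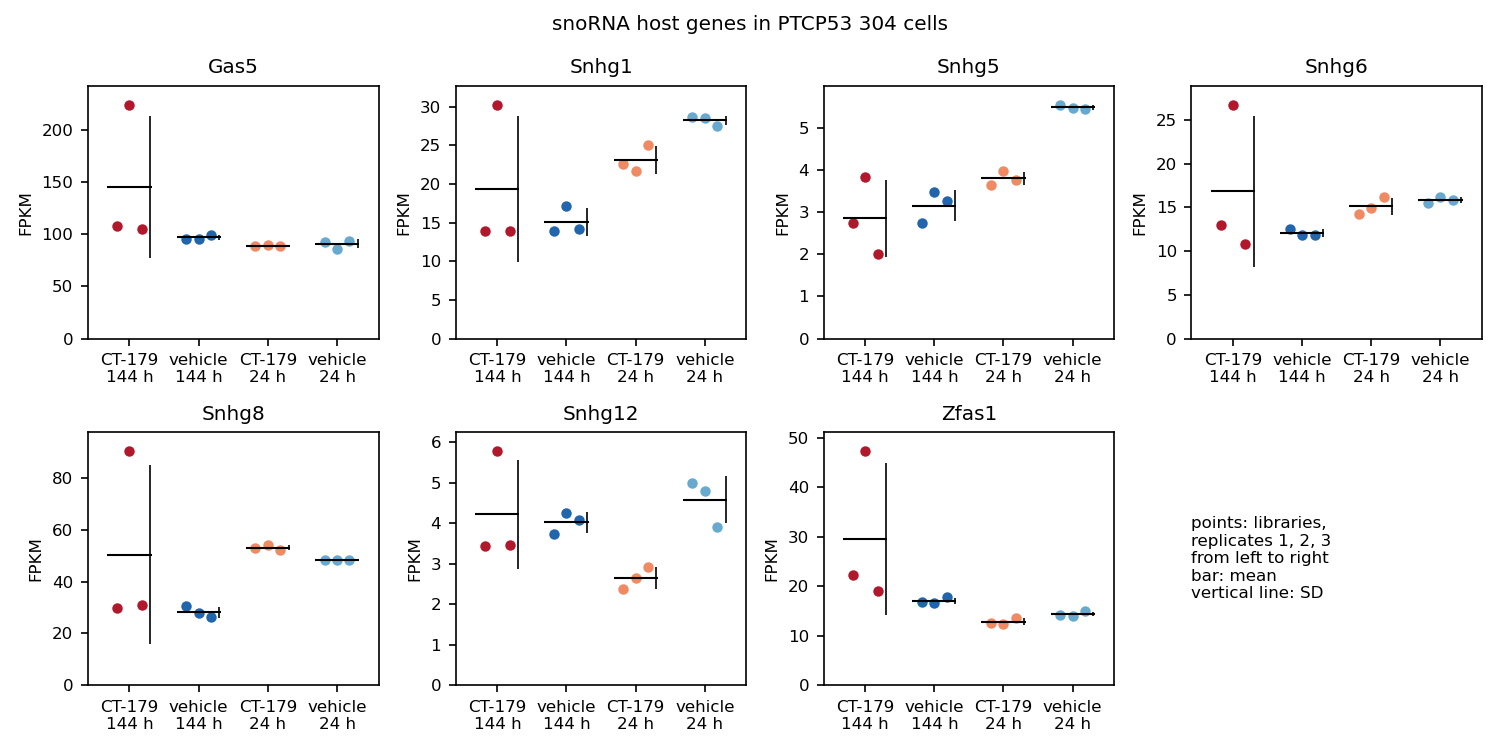
FPKM of each host gene (y axis) in the 4 groups of cell libraries; points are replicates 1 to 3 from left to right, bars are means and vertical lines SD (n = 3). The 3 CT-179 libraries at 24 h lie below the 3 vehicle libraries for Snhg1, Snhg5, Snhg12 and Zfas1, and CT-179 144 h replicate 2 lies above its 2 partners in every panel.

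Summed per host, the snoRNA genes inside Gas5, Snhg1 and Zfas1 stood lower under CT-179 at both times, while the exons of Gas5 differed little at 24 h. Snord78 had 9.09, 5.36 and 8.17 FPKM under CT-179 at 24 h, against 29.0, 31.4 and 23.8 FPKM in vehicle. At 144 h it had 3.63, 9.28 and 3.72 FPKM under CT-179, against 20.3, 16.2 and 14.8 FPKM in vehicle. No CT-179 library reached the lowest vehicle library at either time. Summed over the 10 snoRNA gene models in Gas5, 234 fragments were counted in the 3 CT-179 libraries at 24 h and 487 in the 3 vehicle libraries. Per 1000 fragments on the Gas5 exons this was 24.9 ± 5.52 under CT-179 and 71.6 ± 6.12 in vehicle at 24 h (SD, n = 3 each), and 11.3 ± 3.73 under CT-179 and 38.9 ± 4.02 in vehicle at 144 h. Vehicle was 2.88-fold and 3.44-fold higher at the 2 times, and 2.92-fold at 144 h without replicate 2. For Snhg1 the values were 39.1 ± 6.64 under CT-179 and 87.2 ± 17.8 in vehicle at 24 h, and 19.4 ± 4.86 under CT-179 and 62.6 ± 25.2 in vehicle at 144 h. For Zfas1 they were 16.4 ± 5.91 under CT-179 and 51.9 ± 2.54 in vehicle at 24 h, and 4.71 ± 2.68 under CT-179 and 21.1 ± 4.39 in vehicle at 144 h, on 12 to 56 fragments per group. Groups did not overlap for any of these 3 hosts. They overlapped for Snhg6 and Snhg8 at both times and for Snhg5 at 24 h. At 144 h Snhg5 was lower without overlap, on 0 fragments under CT-179 and 5 in vehicle. These values chose the hosts, or come from the contrast that did, and carry no test.

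The lower snoRNA-gene signal was not limited to these hosts. Of the 16 embedded genes that passed the filter, the mean was lower under CT-179 in 16 at 24 h and 15 at 144 h, the exception being Gm25855 in Snhg1 on 8 fragments under CT-179 and 7 in vehicle; of the other 110 snoRNA genes that passed it, 108 and 100 were lower. Without overlap between libraries, 12 of 16 were lower at 24 h and 6 of 16 at 144 h, against 46 and 52 of the other 110. No CT-179 library reached 1 FPKM for Mir5117 in Gas5 or Gm25878 in Zfas1. They passed the filter through vehicle libraries only, which partly fixes their direction in these counts. Gm24452, Snord22, Gm22489, Gm23246 and Snora24 reached 1 FPKM in some CT-179 libraries, but in fewer than the 3 that the filter asks for. They passed only with vehicle libraries counted in, which can tilt their direction too. The same can hold for some of the other 110 snoRNA genes. Most values rest on few fragments: Gm23212, at 5.94, 5.36 and 4.49 FPKM under CT-179 and 23.5, 15.0 and 18 FPKM in vehicle at 24 h, had 39 fragments in the 3 CT-179 libraries and 99 in the 3 vehicle libraries. Fragments on a snoRNA gene can come from the small RNA or from unspliced host RNA, which cannot be told apart in these tables. The libraries came from an mRNA kit, and how far it keeps the small RNAs was not tested. The 5 snoRNA gene models in Snhg12, whose whole span was counted as host, were listed at 0 in all 12 cell libraries, and no embedded snoRNA gene was listed in the brain table.

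**Figure D3:**
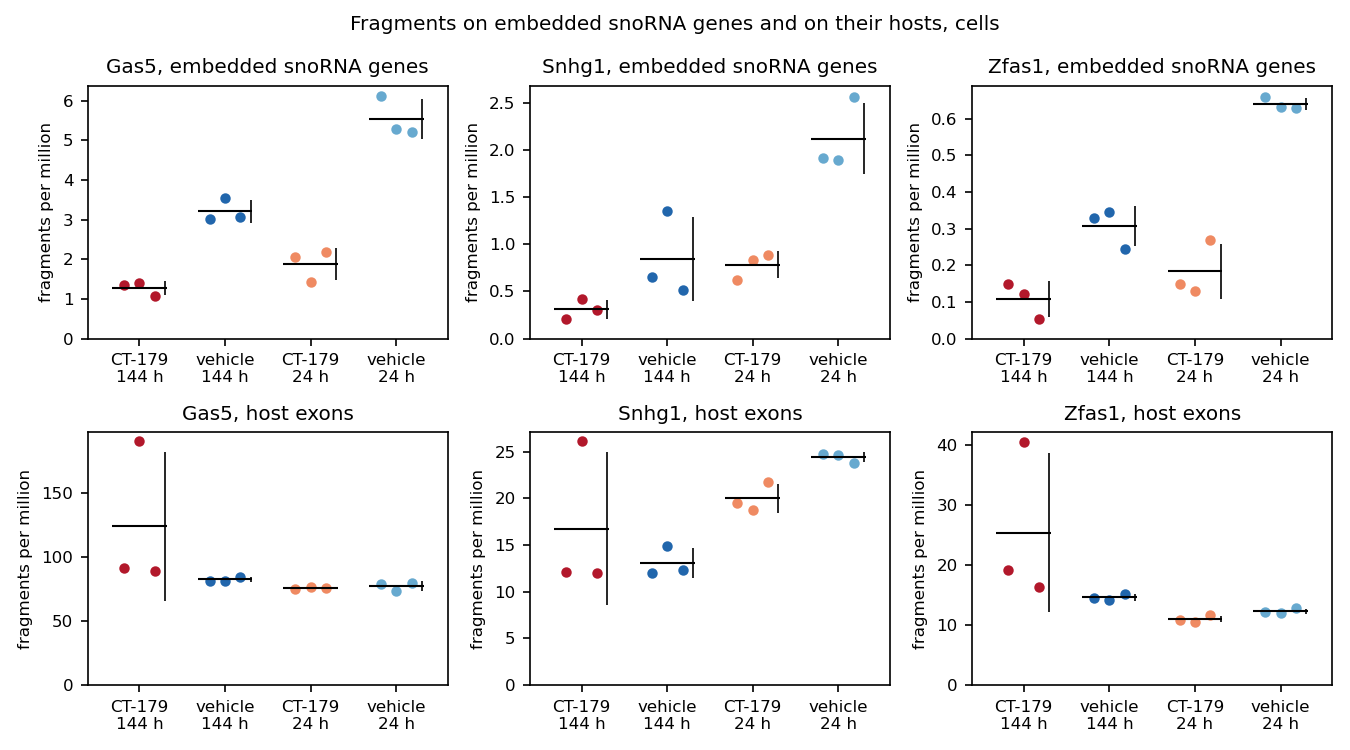
Fragments per 1000000 of the library (y axes) on embedded snoRNA genes, upper row, and on the exons of their host, lower row, in the 4 cell groups; points are replicates, bars means, vertical lines SD (n = 3). All 3 CT-179 points lie below all 3 vehicle points in the upper row at both times, while Gas5 exons overlap between CT-179 and vehicle at 24 h.

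Between the 2 time points, which the choice of hosts did not use, Snhg1 and Snhg5 were lower at 144 h in vehicle (limma on log2(FPKM + 1), Benjamini-Hochberg over 12510 genes). Snhg1 stood at 13.9, 17.2 and 14.2 FPKM at 144 h, against 28.6, 28.5 and 27.5 FPKM at 24 h (log2 fold change -0.87 ± 0.24 SE, adjusted p = 0.00795). Snhg5 stood at 2.74, 3.47 and 3.25 FPKM at 144 h, against 5.54, 5.47 and 5.44 FPKM at 24 h (-0.65 ± 0.14, adjusted p = 0.0021). These 2 of 7 compare with 32.4% of all genes called lower; no host was called higher, where 34.1% of all genes were. Snhg8 stood at 30.4, 27.7 and 26.3 FPKM at 144 h, against 48.2, 48.3 and 48.3 FPKM at 24 h, without overlap, and missed the threshold at -0.76 ± 0.33 (adjusted p = 0.0617). Gas5 was at 0.09 ± 0.23 and Zfas1 at 0.23 ± 0.25 (adjusted p = 0.742 and 0.443).

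The spread in that fit is shared by all cell groups and so includes CT-179 144 h replicate 2. Without it, 6 of 7 hosts passed in vehicle: Snhg1, Snhg5, Snhg6 and Snhg8 were lower and Gas5 and Zfas1 higher, with the same fold changes and standard errors of 0.03 to 0.08. The same limma test then called 43.4% of 12459 genes lower and 44.2% higher. Snhg12 was not called (-0.15 ± 0.08, adjusted p = 0.0918).

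Under CT-179, 3 of 7 hosts were higher at 144 h than at 24 h by the same test, where 33.2% of all genes were; none was lower, where 32.1% of all genes were. Zfas1 stood at 22.3, 47.3 and 19.1 FPKM at 144 h, against 12.6, 12.3 and 13.6 FPKM at 24 h (1.03 ± 0.25, adjusted p = 0.00398). Snhg12 stood at 3.44, 5.77 and 3.45 FPKM at 144 h, against 2.38, 2.64 and 2.91 FPKM at 24 h (0.49 ± 0.15, adjusted p = 0.0159). Gas5 rose by 0.61 ± 0.23 (adjusted p = 0.038), a call lost when any 1 of the 9 libraries of the other groups was left out. Without CT-179 144 h replicate 2 all 7 hosts passed, with Gas5 at 0.25, Snhg12 at 0.29 and Zfas1 at 0.65 higher and Snhg1 at -0.69, Snhg5 at -0.52, Snhg6 at -0.33 and Snhg8 at -0.79 lower, where 43.9% of all genes were called higher and 41.7% lower. Snhg6, host of Snord87, was at 0.05 with that library. Same-numbered libraries of the 2 CT-179 groups deviated together weakly (r 0.109 to 0.241, highest for replicate 2, which stands apart at 144 h). The 3 values share group means and are not independent, so they do not establish a pairing. With the replicate number as a block Snhg5 was also lower (-0.34, limma adjusted p = 0.0468), giving 4 of 7 hosts.

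**Figure D4:**
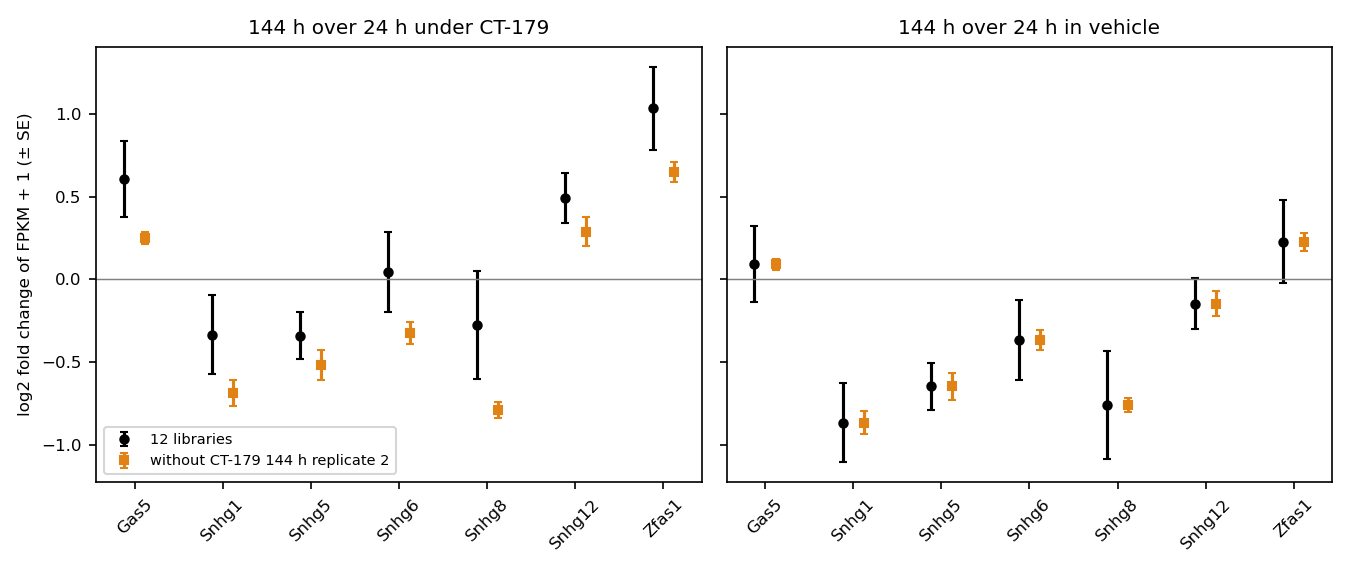
Log2 fold change of FPKM + 1 at 144 h over 24 h (y axis) for each host under CT-179 and in vehicle; circles use 12 cell libraries, squares leave out CT-179 144 h replicate 2, and lines are SE from limma. Snhg8 under CT-179 is at -0.27 with that library and -0.79 without it.

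Genes of the same pathways, from lists chosen with earlier results of these data known, were tested over time as well. In vehicle, 11 of 12 box C/D snoRNP and assembly genes and 7 of 7 box H/ACA genes were lower at 144 h, where 32.4% of all genes were lower and 34.1% higher, with medians of -1.03 and -1.29 against 0.01 over all genes tested. Nop58, a core box C/D protein, stood at 7.26 ± 0.171 FPKM at 144 h and 22.3 ± 1.17 FPKM at 24 h (SD, n = 3 each; limma adjusted p = 4.18e-09). Dkc1, the pseudouridine synthase of the box H/ACA particle, stood at 17.2 ± 0.667 FPKM at 144 h and 62.7 ± 0.915 FPKM at 24 h (limma adjusted p = 4.24e-08). Of 34 protein-coding snoRNA hosts 30 were lower and 1 higher in vehicle, and 18 and 1 under CT-179, where 32.1% of all genes were lower (33 of 34 without replicate 2 at 144 h, where 41.7% were). Of 8 other noncoding hosts tested, 5 were lower in vehicle, with Snhg4 at 1.46 ± 0.196 FPKM at 144 h and 10.5 ± 0.671 FPKM at 24 h (limma adjusted p = 1.6e-06).

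Among genes that act on spliced host RNA, 9 of 16 nonsense-mediated decay factors and 12 of 18 exonuclease and exosome genes were lower in vehicle at 144 h, with 1 exonuclease gene higher, beside 32.4% of all genes lower and 34.1% higher. Eif4a3, a core of the exon junction complex, stood at 57.3 ± 1.11 FPKM at 144 h and 110.6 ± 4.0 FPKM at 24 h (SD, n = 3 each; limma adjusted p = 4.77e-05). Of 16 genes of oligopyrimidine mRNA control and mTORC1, 7 were lower and 3 higher, and of 11 genes of the glucocorticoid receptor and its targets, 3 were lower and 4 higher, both lists to be read against those same shares. Without CT-179 144 h replicate 2, 6 genes of oligopyrimidine control and mTORC1 were higher and 9 lower, and 13 decay factors and 15 exonuclease and exosome genes were lower, where 43.4% of all genes were lower and 44.2% higher. All 12 proliferation genes were lower, with a median of -3.27. In the comparison of CT-179 with vehicle, described without a test, the median of the protein-coding hosts was 0.14 at 24 h and 0.50 at 144 h (0.20 without replicate 2), and that of the other noncoding hosts -0.35 and -0.07 (-0.31 without replicate 2). Over all genes tested the median was -0.01 at 24 h and -0.05 at 144 h (-0.007 without replicate 2).

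Protein-coding neighbours on the opposite strand were tested over time as well. Slc3a2, an amino acid transporter chain whose start lies 106 bases from that of Snhg1, stood at 133.6 ± 0.903 FPKM at 144 h in vehicle and 39.5 ± 1.36 FPKM at 24 h (log2 fold change 1.73, limma adjusted p = 1.25e-06), while Snhg1 fell. Znfx1, which overlaps Zfas1, stood at 7.56 ± 0.293 FPKM at 144 h and 3.50 ± 0.106 FPKM at 24 h (0.93, limma adjusted p = 0.00298). Zbtb37, which overlaps Gas5, was at 0.38 (limma adjusted p = 0.0696), and Mcmdc2, which overlaps Snhg6, did not pass the filter. The strand of counting is not given in the sources used here, so reads of overlapping pairs cannot be told apart.

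In whole brain no host passed the limma test between CT-179 and vehicle, and 0% of 13422 genes passed in either direction; 490 genes and none of the hosts were at an unadjusted p under 0.05. In whole tissue, fewer cells of a type and less RNA per cell cannot be told apart. Oligodendrocyte markers summed to 4761 to 6114 FPKM in CT-179 brains and 4477 to 4858 FPKM in vehicle brains, and neuronal markers to 1148 to 1344 FPKM in CT-179 brains and 1050 to 1226 FPKM in vehicle brains. Gas5 stood at 116, 64.0 and 82.4 FPKM in CT-179 brains, against 72.3, 80.6 and 112 FPKM in vehicle brains. Snhg8 stood at 47.4, 27.9 and 30.5 FPKM in CT-179 brains, against 24.5, 27.8 and 43.5 FPKM in vehicle brains. The widest difference was that of Snhg1, at 20.7, 15.6 and 17.1 FPKM in CT-179 brains and 17.7, 22.7 and 23.8 FPKM in vehicle brains (-0.25 ± 0.14 SE, adjusted p = 0.97). The groups overlapped for all 7 hosts, where 10.3% of all genes did not. CT-179 replicate 1 and vehicle replicate 3 held the highest value of every host between them; in them the shortest 10% of genes stood 0.21 and 0.09 above the table mean, and the part of this in the host values was not tested. In the authors' deposited table the false discovery rate was 1 for all 7 hosts; its fold change ran as vehicle over CT-179 and matched the vehicle libraries without replicate 2 more closely (r = 0.998) than all 3 (r = 0.557). Without that library the log2 fold changes lay between -0.20 and 0.07, with Zfas1 at -0.01, against 0.07 with it.

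**Figure D5:**
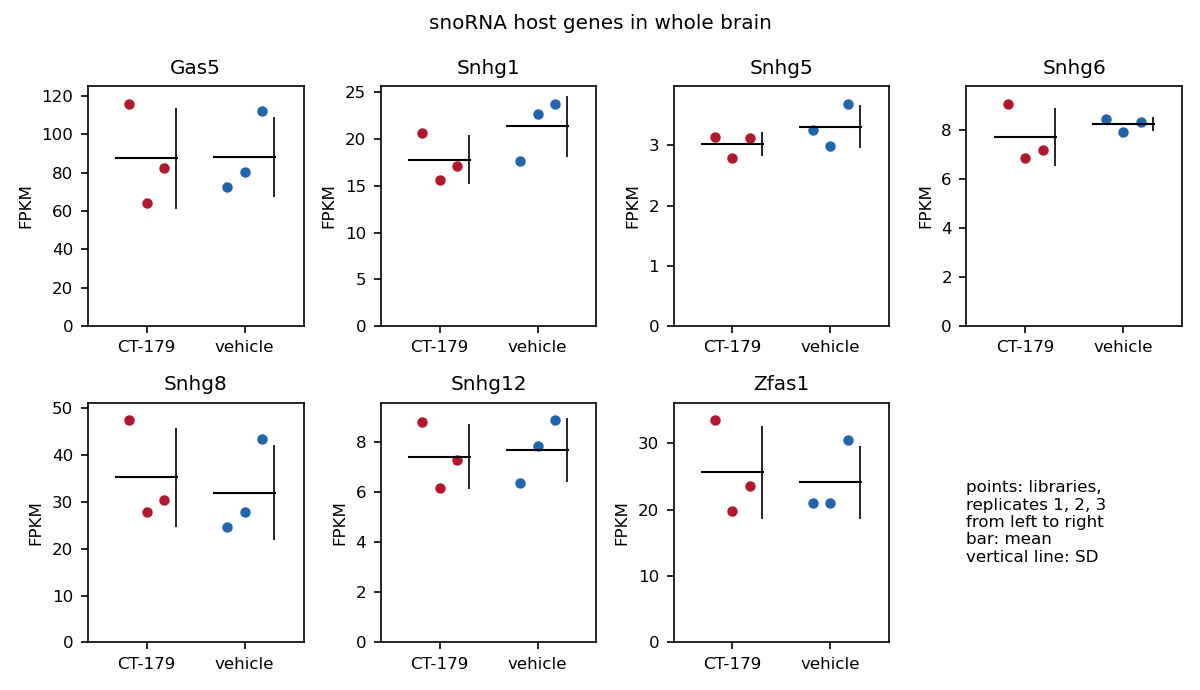
FPKM of each host gene (y axis) in CT-179 and vehicle whole brains; points are replicates 1 to 3 from left to right, bars are means and vertical lines SD (n = 3). The 2 groups overlap in all 7 panels.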

How the data were processed

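RNA was measured in 18 libraries. Per the labels' protocols, libraries came from an mRNA kit and were read as paired ends of 100 bases; per the submitters' processing notes, the tools were edgeR 3.28.1 with R 3.6, HTSeq 0.6.1p2, STAR 2.6.0c and Trim Galore 0.5.0 and the build was mm10, in roles not given there. The authors deposited FPKM per gene and library, and for brain a log2 fold change, log2 abundance, likelihood ratio score, p-value and false discovery rate per gene. The hosts and lists were chosen with earlier results of these data known.

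A gene entered a fit at 1 FPKM or more in at least 3 libraries. Values were taken as log2(FPKM + 1), and limma 3.58.1 (R 4.3.3) was applied (group means, mean trend, two-sided, Benjamini-Hochberg, threshold 0.05); this scale understates changes of low genes. All 12 cell libraries shared 1 fit, and the 6 brain libraries another. The value of 1 fragment gave each library's size, and the smallest length that made every library's value whole within 0.005 fragment gave the gene length behind the FPKM (851 bases for Gas5, 865 for Snhg1, 2885 for Snhg5, 1146 for Snhg6, 604 for Snhg8, 2402 for Snhg12, 859 for Zfas1); no count model was run. The Snhg5 model of the files spans 28295 bases, against 1880 in GENCODE M21. No pair of replicates was as alike as sampling noise alone allows. On simulated data with 200 changed genes, the fit recovered 96% of changes of 0.5 on the log2 scale for time in vehicle and 45% for CT-179 in brain. For cells the simulated spread left out the CT-179 144 h group, which the fit of 12 libraries includes. The 96% therefore does not describe the power of that fit, and a host it missed can still have changed.

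Named genes were the hosts, embedded snoRNA genes, opposite-strand coding neighbours that overlap or start within 5 kb, up to 3 members of a list with the smallest p past the threshold, and the 2 genes most like each host (small RNA genes and Gm, Rik or accession-like names left out). Same-numbered replicates deviated together (r above 0.1) in all 3 pairs of CT-179 144 h with CT-179 24 h (0.109 to 0.241), in none of the 9 other cell pairs and in 1 of 3 brain pairs. Any pairing would come from the data, not the labels, and these values do not establish one.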

Additional observations from a re-analysis of the deposited data

Results flagged for a closer look

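Zfas1 was below every vehicle library in every CT-179 library at 24 h (12.6, 12.3 and 13.6 FPKM under CT-179, 14.2, 14.0 and 14.9 FPKM in vehicle) and above every vehicle library at 144 h (22.3, 47.3 and 19.1 FPKM under CT-179, 16.8, 16.5 and 17.7 FPKM in vehicle). The log2 fold change at 144 h minus that at 24 h was 0.81, and 0.42 without CT-179 144 h replicate 2. The opposite directions drew attention to it, and the difference was not tested.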

How the results depend on the processing

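For time in vehicle, 2 hosts passed; the length correction gave 5, a separate fit of the 6 libraries 6, and leaving out single libraries 2 to 6. For time under CT-179, 3 passed; the length correction gave 5, the separate fit 1, leaving out single libraries 1 to 7 (Zfas1 alone without CT-179 24 h replicate 1, 7 without CT-179 144 h replicate 2), and median-of-ratios scaling after dropping that library, an alternative chosen after seeing the data, 7. Calls over all genes moved as well. In either direction they made up 66.5% in vehicle and 65.3% under CT-179, and 87.7% and 85.6% without CT-179 144 h replicate 2. Leaving out single libraries gave 7456 to 10920 genes in vehicle and 7373 to 10670 under CT-179. The other alternatives gave 7905 to 10690 and 6295 to 9965, and the host counts are to be read beside these. In brain 0 hosts passed under every alternative run. Taking the replicate number as a block gave 2 hosts for time in vehicle, 4 for time under CT-179 and 0 in brain. A pairing of samples by these numbers is not established. The median host change under CT-179 against vehicle lay between -0.22 and -0.10 at 24 h under the alternatives run. At 144 h it was 0.34 and, without CT-179 144 h replicate 2, -0.03, the opposite direction (single libraries left out, -0.03 to 0.59). Directions turned for Snhg6 over time under CT-179 (-0.075 with the length correction, -0.33 without CT-179 144 h replicate 2, -0.38 with scaling as well, and -0.33 to 0.29 over all single libraries left out). In brain, leaving out single libraries gave -0.25 to 0.17 for Gas5 (0.15 without vehicle replicate 3), -0.087 to 0.38 for Snhg8 (-0.02 without vehicle replicate 1), -0.16 to 0.063 for Snhg12 (0.05 without vehicle replicate 3) and -0.13 to 0.25 for Zfas1 (-0.01 without vehicle replicate 1 or 2); TPM scaling gave -0.015 for Zfas1. Under CT-179 against vehicle in cells, described without a test, leaving out single libraries at 144 h gave -0.10 to 0.43 for Snhg1, -0.31 to 0.036 for Snhg5, -0.027 to 0.59 for Snhg6 and -0.17 to 0.13 for Snhg12; the length correction gave -0.056 for Snhg1 and -0.073 for Snhg12, TPM scaling -0.13 for Snhg12, and at 24 h median-of-ratios scaling 0.024 for Gas5. The cause was not tested. Depth limits the snoRNA genes, many of which had under 20 fragments in a library.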

Other observations

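Over the 12 cell libraries, the genes whose log2(FPKM + 1) ran most like a host were Aamp and Ggh for Gas5 (Pearson's r 0.992 and 0.991), Rassf1 and the snoRNA host Snhg3 for Snhg1 (0.976 and 0.975), and the snoRNA host Snhg15 and Arfip2 for Snhg5 (0.966 and 0.959). They were Tmem107 and Abhd10 for Snhg6 (0.974 and 0.970), Lage3 and Ier3ip1 for Snhg8 (0.997 and 0.993), Phf1 and Rbm12b1 for Snhg12 (0.919 and 0.903), and Pdrg1 and Paip1 for Zfas1 (0.985 and 0.982). All points share the library that stands apart, and without it 2 other genes led for each host, such as Cd1d1 and Zfp521 for Gas5 (0.947 and 0.942 over 11 libraries). Gas5 and Zfas1 ran together with it (r 0.967) and without it (0.940), while Gas5 and Snhg8 stood at 0.470 with it and -0.792 without it. These are descriptions over libraries that share treatments and times.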
